A study of Saccharomyces cerevisiae with 16 samples.

Results

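Genes of the osmotic response are described here, 10 of the 7126 listed in each file, taken by systematic ID. They are the glycerol synthesis genes GPD1 (YDL022W), GPD2 (YOL059W), GPP1 (YIL053W) and GPP2 (YER062C), the glycerol carriers STL1 (YDR536W) and FPS1 (YLL043W), the water channel AQY1 (YPR192W), the sensor and kinase genes SLN1 (YIL147C) and HOG1 (YLR113W), and the stress target GRE2 (YOL151W). The members were named by ID with no threshold, but chosen by their expression levels in these libraries too, since the values by group and replicate number were known when they were picked. Levels, differences and calls of the members are therefore descriptions, read from fits across all genes. All 10 passed the filter on low counts, and the lowest count of a member in a library was 147 reads, for AQY1.

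All groups share 1 strain of Saccharomyces cerevisiae, trm10∆, which lacks the gene of a tRNA methyltransferase. No strain with an intact TRM10 was analysed here. Spheroplasts, which are cells with the wall digested away, were electroporated with no RNA, with rancRNA_18 (a short ribosome-associated RNA derived from the TRM10 message) or with rancRNA_18-M2, a form whose difference was not given in the sources used here. Poly(A) RNA from recovered spheroplasts was sequenced either from the cleared lysate (total mRNA) or from the polysome fractions of a density gradient combined into 1 sample (polysomal mRNA). No RNA and rancRNA_18-M2 each had 3 libraries of either fraction, and rancRNA_18 had 2 of total mRNA. The pair of rancRNA_18 polysomal files held the same count in all 7126 genes and was counted as 1 library, which leaves 15 distinct libraries. Its replicate number, 1 or 2, is therefore unknown. The labels do not state the osmolarity of the medium, the time of recovery, or whether a replicate number marks a culture or a day, so p-values measure only the spread between these samples.

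Yeast balances turgor by making and holding glycerol. Gpd1 and Gpd2 reduce dihydroxyacetone phosphate to glycerol 3-phosphate, and the phosphatases Gpp1 and Gpp2 release glycerol from it. At high osmolarity the membrane histidine kinase Sln1 loses activity, which switches on the kinase cascade that ends in Hog1. Hog1 then acts with transcription factors such as Hot1, Sko1, Msn2 and Msn4 on targets that include GPD1, STL1 and GRE2. Fps1 is the channel through which glycerol leaves the cell and it closes under hyperosmotic stress, Stl1 imports glycerol together with protons, and Aqy1 is a water channel.

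Libraries held 16691019 to 31148081 reads in genes, and the second highest had 21962246. TRM10 had 0 to 5 reads a library (19 in all), whereas its neighbours RFC4 and YPQ1 had 203 to 326 and 517 to 1043. Libraries with the same replicate number deviated together from their group means, with r between 0.429 and 0.794 in all 26 pairs from different groups. The scaling factors differed with the number as well, at 0.7487 to 0.992 for number 1, 0.9129 to 1.133 for number 2 and 1.051 to 1.186 for number 3. Within a number they also differed with the fraction. Replicates 1, 2 and 3 with no RNA had 0.992, 1.133 and 1.186 in total and 0.8922, 0.9373 and 1.051 in polysomal mRNA. With rancRNA_18-M2 they had 0.961, 1.069 and 1.164 in total and 0.7487, 0.9129 and 1.117 in polysomal mRNA. Fits are given without and with the number as a block.

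Per length, GPP1 was the most abundant member, with a median over the 15 libraries of 2327 CPM (read counts scaled to a fixed library size, with the sizes adjusted by TMM) per kilobase of coding sequence and a range of 1333 to 2889. GPD1 followed with a median of 1451 CPM per kilobase, GPP2 with 930 and GRE2 with 813. The ranges of neighbours in this order overlapped from GPP1 down to GRE2. STL1 had a median of 117 CPM per kilobase, GPD2 of 114 and HOG1 of 83.3, and these ranges overlapped too. The highest STL1 level, 173 CPM per kilobase, stayed below the lowest GRE2 level of 556. FPS1 had a median of 41.8 CPM per kilobase and AQY1 of 22.8, with overlapping ranges. SLN1 was lowest at 6.32 CPM per kilobase, and its highest value of 6.999 lay below the lowest AQY1 value of 9.21. Across libraries AQY1 varied most, with a highest CPM 5.66 times the lowest, then STL1 at 4.59 times and GRE2 at 2.42 times. HOG1 varied least, at 1.40 times. In bulk libraries, fewer cells with a message and less message per cell cannot be told apart in these levels.

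**Figure D1:**
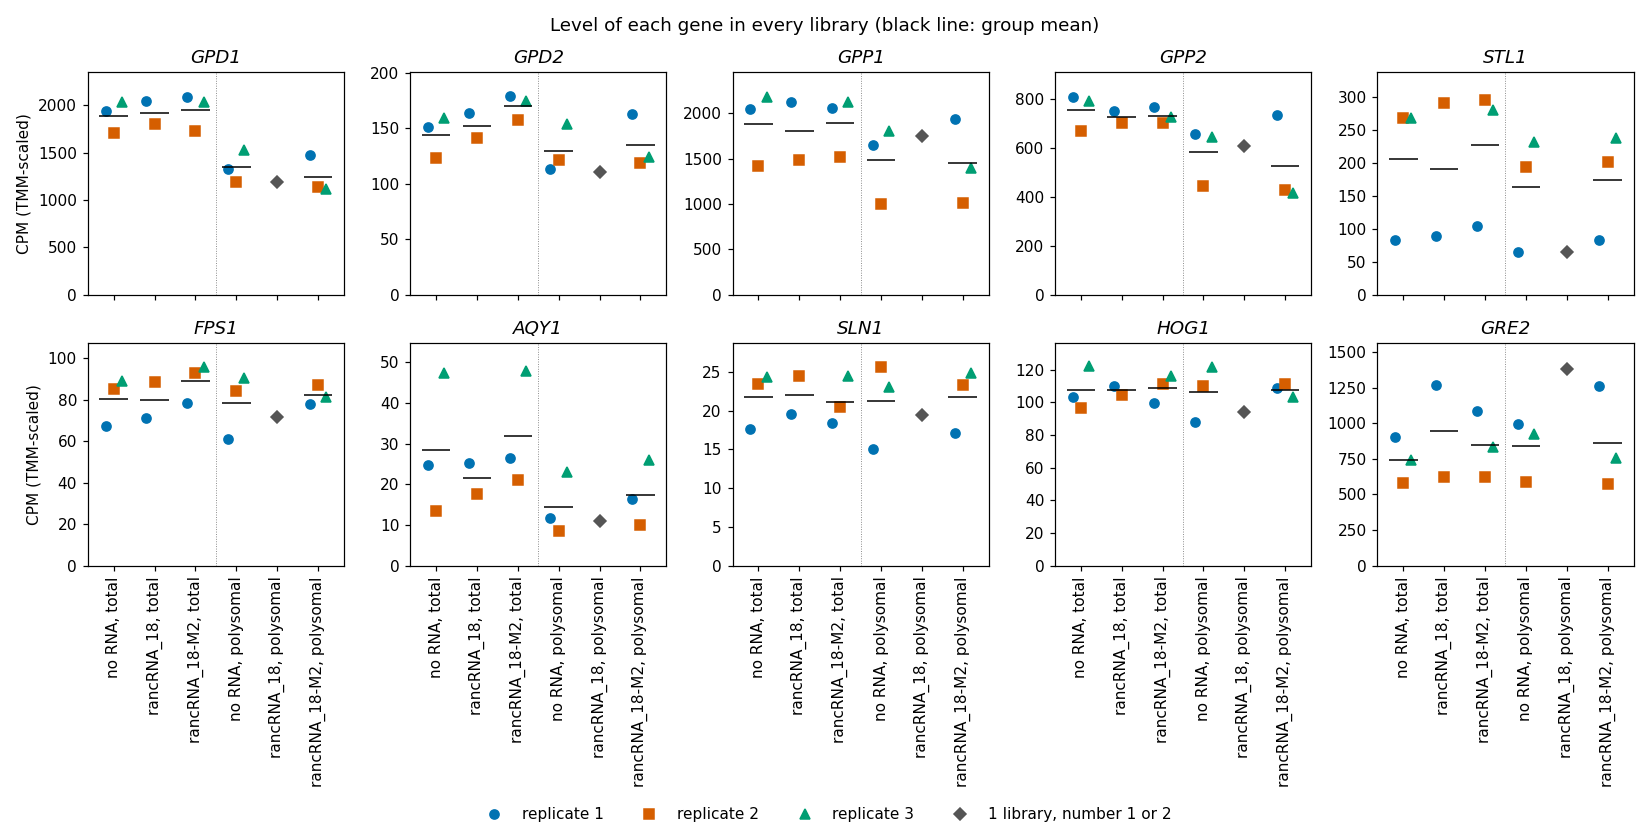
Level of each of the 10 genes (CPM, TMM-scaled, axis from 0) in the 15 libraries, by electroporation and fraction. Symbols give the replicate number, black lines the group means, and a diamond the single rancRNA_18 polysomal library. STL1 separates number 1 (64.4 to 104 CPM) from numbers 2 and 3 (193 to 295 CPM), and GPD1 separates total (1706 to 2092 CPM) from polysomal libraries (1115 to 1533 CPM). The share of all genes that separate the fractions was not counted.

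Sequence upstream of 4 members is shown. These genes gave the largest differences between replicate numbers or between fractions, and their windows held a match to a motif searched. For GPP1, FPS1 and SLN1 a stretch was sought too, but none is printed because their windows held no match. The motifs were chosen because known factors of the pathway are described to bind them. The motifs searched, on either strand, were the stress response element core CCCCT or AGGGG (bound by Msn2 and Msn4), the Hot1 motif GGGACAAA, read as TTTGTCCC on the other strand, and the 2 motifs TGACGTCA and TTACGTAA, which resemble sites of Sko1 and related factors. The search window ran from base 500 to base 101 before the coding start in the RefSeq assembly R64. Below, 120 bases of each window are printed 5′ to 3′ on the plus strand, with motif matches in capitals.
STL1 upstream, chrIV:1507767-1507886: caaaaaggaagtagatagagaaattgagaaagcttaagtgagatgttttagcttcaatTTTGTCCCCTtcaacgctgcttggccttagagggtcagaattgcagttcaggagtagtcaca
GPD1 upstream, chrIV:411473-411592: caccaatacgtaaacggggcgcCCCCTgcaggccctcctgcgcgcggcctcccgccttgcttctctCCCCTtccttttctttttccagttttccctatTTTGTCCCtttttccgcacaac
GRE2 upstream, chrXV:43426-43545: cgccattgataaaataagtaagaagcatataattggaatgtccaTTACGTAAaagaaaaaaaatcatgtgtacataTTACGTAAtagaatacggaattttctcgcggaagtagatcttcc
AQY1 upstream, chrXVI:921360-921479: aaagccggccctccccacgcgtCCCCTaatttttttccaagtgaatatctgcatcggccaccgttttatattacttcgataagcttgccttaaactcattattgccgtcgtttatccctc
In STL1 the Hot1 motif and the stress element overlap in 1 run of capitals, from base 180 to base 171 before the start. GPD1 holds 2 stress elements and, apart from them, 1 Hot1 motif at bases 254 to 247. GRE2 holds TTACGTAA at bases 224 to 217 and again at 192 to 185, and AQY1 holds a single stress element at bases 478 to 474. The stress element core occurred in the windows of 5 of 10 members (GPD1, GPD2, GPP2, STL1 and AQY1) and in 29.2% of 6006 windows of that length. The Hot1 motif occurred in 3 of 10 (GPD1, GPP2 and STL1) and in 1.1% of all windows. TTACGTAA occurred in 1 of 10 and in 1.2% of all, and TGACGTCA in 0 of 10 and in 0.1%. These are letter matches and no measure of binding. Known targets of the pathway, GPD1, STL1 and GRE2 among them, were taken as members, so the shares do not test enrichment.

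The coding sequences of GPP1 and GPP2 are 83.2% identical, and their longest shared run has 26 bases (chrIX:255184-255209 in GPP1, plus strand), shown because reads longer than it would differ between the copies.
GPP1 and GPP2 shared run: atcatctctcaaccagccattgctgc
For GPD1 and GPD2 the identity was 75.4% of 1164 aligned bases, with 171 gap bases left out and a longest run of 25 bases. For AQY1 and the related AQY2 it was 78.6% with a run of 20. That identity covers only 449 aligned bases, with 470 gap bases left out, since AQY2 has 450 annotated coding bases and AQY1 918. Read length and the handling of reads with several matches were not given in the sources used here, and a small exchange of counts within a pair was not tested. No member overlaps another gene in the R64 annotation.

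GPD1, the main osmotically induced glycerol 3-phosphate dehydrogenase gene, was lower in polysomal than in total mRNA. With no RNA, total replicates 1, 2 and 3 had 1939, 1706 and 2033 CPM, and polysomal replicates 1330, 1188 and 1533 CPM. With rancRNA_18-M2 the total libraries had 2092, 1726 and 2040 CPM and the polysomal libraries 1481, 1141 and 1115 CPM. With rancRNA_18 the total libraries had 2043 and 1806 CPM, and the single polysomal library had 1188 CPM. The fractions did not overlap in any electroporation, and all 6 pairs of the same electroporation and number were lower in polysomes. The share of all genes with either pattern was not counted, here or for the pair counts of the other members. Without the block, the log2 fold change was -0.49 (SE 0.20) with no RNA and -0.65 (SE 0.20) with rancRNA_18-M2, and neither passed (adjusted p = 0.42 and 0.13, edgeR's quasi-likelihood test over all genes). With the replicate block both passed, at -0.49 (SE 0.12, adjusted p = 0.0073) and -0.65 (SE 0.12, adjusted p = 0.00049). Leaving out total replicate 3 with no RNA ended the first of these calls (adjusted p = 0.052), and no single omission ended the second.

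GPD2, whose product serves redox balance when oxygen is short, differed less between fractions. It ranged from 123 to 179 CPM in total and from 111 to 163 CPM in polysomal libraries, with overlap. It was lower in polysomes in 6 of 6 pairs. With the block its log2 fold change was -0.15 (SE 0.12, adjusted p = 0.40) with no RNA and -0.34 (SE 0.12, adjusted p = 0.034) with rancRNA_18-M2, and the second call was lost in 6 of 14 fits that each left out 1 library.

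The phosphatase genes GPP1 and GPP2 varied within groups as well as between fractions. GPP1 had 2044, 1415 and 2175 CPM in total replicates 1, 2 and 3 with no RNA, and 1654, 1004 and 1804 CPM in polysomes. With rancRNA_18-M2 it had 2056, 1514 and 2120 CPM in total and 1939, 1010 and 1393 CPM in polysomal mRNA, and with rancRNA_18 2123 and 1484 CPM in total and 1752 CPM in polysomal mRNA. Within each group of 2 or more libraries, replicate 2 was the lowest, and the share of all genes like this was not counted. GPP2, the copy more strongly induced by osmotic stress, had 808, 667 and 789 CPM in total and 658, 443 and 643 CPM in polysomal mRNA with no RNA. With rancRNA_18-M2 it had 767, 700.0 and 728 CPM in total and 733, 427 and 415 CPM in polysomal mRNA. Its lowest library was replicate 2 in all of these groups but the last, where replicate 3 was lowest. Its total libraries overlapped its polysomal ones only through polysomal replicate 1 with rancRNA_18-M2. The blocked log2 fold change of polysomal against total mRNA was -0.35 (SE 0.13, adjusted p = 0.059) for GPP1 and -0.39 (SE 0.15, adjusted p = 0.072) for GPP2 with no RNA. With rancRNA_18-M2 both passed, at -0.42 (SE 0.13, adjusted p = 0.019) and -0.51 (SE 0.15, adjusted p = 0.013), calls that were lost in 4 and 3 of 14 fits without 1 library.

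STL1, the glycerol importer, showed the largest difference between replicate numbers among the 10. In total mRNA, replicates 1, 2 and 3 had 83.1, 267 and 268 CPM with no RNA and 104, 295 and 280 CPM with rancRNA_18-M2, and replicates 1 and 2 had 89.1 and 290.3 CPM with rancRNA_18. In polysomal mRNA the values were 64.4, 193 and 232 CPM with no RNA and 82.6, 200.5 and 238 CPM with rancRNA_18-M2. Each library of number 1 thus lay below each library of numbers 2 and 3, in both fractions. The single rancRNA_18 polysomal library had 65.0 CPM. The log2 difference was 1.55 (SE 0.08) between numbers 2 and 1 and 1.65 (SE 0.09) between 3 and 1, the 16th and 25th highest of 6016 genes, and 0.11 (SE 0.09) between 3 and 2. Within total libraries alone the first 2 differences were 1.62 and 1.56, and within polysomal libraries alone 1.45 and 1.69. STL1 was also lower in polysomes in 6 of 6 pairs, at a blocked log2 fold change of -0.34 (SE 0.11, adjusted p = 0.027) with no RNA and -0.38 (SE 0.11, adjusted p = 0.011) with rancRNA_18-M2. Those calls were lost in 4 and 2 of 14 fits without 1 library.

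FPS1, the glycerol export channel, lay at 61.0 to 78.2 CPM in libraries of number 1, 84.1 to 93.1 CPM in number 2 and 81.5 to 96.0 CPM in number 3. Like STL1 it was thus lower in each library of number 1 than in any other numbered library, but by less, with log2 differences of 0.30 (SE 0.07) for 2 against 1 and 0.35 (SE 0.08) for 3 against 1. Its blocked difference between fractions was -0.04 (SE 0.10) with no RNA and -0.11 (SE 0.10) with rancRNA_18-M2, with 5 of 6 pairs lower, and neither passed.

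AQY1, the water channel, combined both kinds of difference. In total mRNA it had 24.8, 13.5 and 47.4 CPM with no RNA, 26.6, 21.0 and 47.9 CPM with rancRNA_18-M2, and 25.2 and 17.7 CPM in replicates 1 and 2 with rancRNA_18. In polysomal mRNA it had 11.7, 8.45 and 23.0 CPM with no RNA, 16.5, 10.1 and 25.9 CPM with rancRNA_18-M2, and 11.1 CPM in the rancRNA_18 library. Replicate 2 was lowest and, where present, replicate 3 highest in each group with 2 or more libraries. The share of all genes with this order was not counted. The log2 difference between numbers 3 and 2 was 1.46 (SE 0.10), the 51st highest of 6016 genes, that between 3 and 1 was 0.88 (SE 0.10) and that between 2 and 1 was -0.58 (SE 0.10). In polysomes AQY1 was lower in 6 of 6 pairs, by 0.67 to 1.08 on the log2 scale. The blocked log2 fold change was -0.95 (SE 0.12, adjusted p = 0.00015) with no RNA and -0.89 (SE 0.12, adjusted p = 6e-05) with rancRNA_18-M2, and neither call was lost without any 1 library. Without the block it was -0.98 (SE 0.49) and -0.86 (SE 0.49), and neither passed (adjusted p = 0.51 and 0.40).

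SLN1, the sensor gene, had 15.03 to 19.6 CPM in libraries of number 1 and 20.5 to 25.6 CPM in numbers 2 and 3, again without overlap. Its log2 difference was 0.41 (SE 0.09) for 2 against 1 and 0.51 (SE 0.10) for 3 against 1. HOG1, the kinase gene, had 87.7 to 110.2 CPM in number 1, 96.2 to 111 CPM in number 2 and 103 to 122 CPM in number 3, with overlap, and it passed in 0 of the 3 comparisons between numbers. Between fractions, the blocked log2 fold changes of SLN1 were -0.05 (SE 0.11) and 0.03 (SE 0.11) with no RNA and rancRNA_18-M2, and those of HOG1 -0.01 (SE 0.11) in both. Each gene was lower in polysomes in 3 of 6 pairs.

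GRE2, a reductase gene induced by osmotic and other stress, was highest in number 1, where STL1 was lowest, in each group with numbered libraries of total mRNA and of polysomal mRNA. How many of all genes were highest in number 1 in each group was not counted. In total mRNA replicates 1, 2 and 3 had 906, 580 and 740 CPM with no RNA and 1084, 619 and 837 CPM with rancRNA_18-M2, and replicates 1 and 2 had 1268 and 621 CPM with rancRNA_18. In polysomal mRNA the values were 998, 591 and 923 CPM with no RNA, 1260, 572 and 758 CPM with rancRNA_18-M2, and 1383 CPM in the rancRNA_18 library. Each library of number 2 lay below each other library. The log2 difference was -0.88 (SE 0.09) for 2 against 1, 0.50 (SE 0.10) for 3 against 2 and -0.39 (SE 0.10) for 3 against 1, and the last became -0.06 under scaling by total counts. The blocked difference between fractions was 0.16 (SE 0.12) with no RNA and -0.01 (SE 0.12) with rancRNA_18-M2. GRE2 was lower in polysomes in 2 of 6 pairs.

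**Figure D2:**
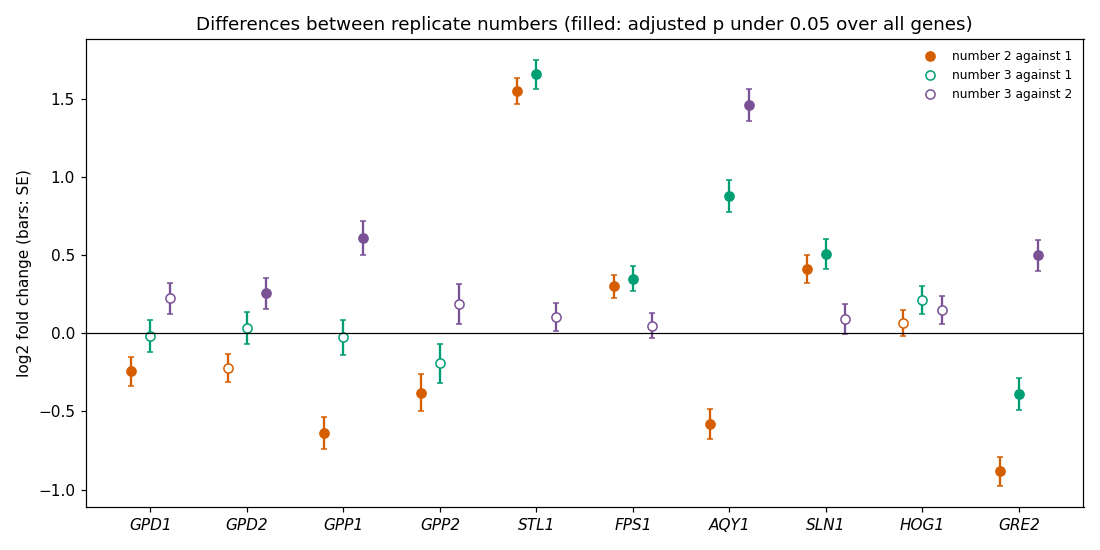
Log2 fold change between replicate numbers for each gene (points; bars are SE), from the fit of group and number over 14 libraries. Filled points had an adjusted p under 0.05 over all genes. STL1 stands at 1.55 and 1.65 against number 1, and AQY1 at 1.46 for number 3 against 2.

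The 3 comparisons between numbers share libraries, so their values are given side by side. For number 2 against 1, 3 of 10 members were higher (STL1, SLN1, FPS1) and 5 lower (GRE2, GPP1, AQY1, GPP2, GPD1), where 40.1% of all genes passed, 19.6% higher and 20.5% lower. The GPD1 call was lost in 11 of 14 fits that each left out 1 library. The GPP2 call was lost in 3, without polysomal replicate 2 with no RNA and without polysomal replicate 1 or 2 with rancRNA_18-M2. For number 3 against 1, 4 were higher (STL1, AQY1, SLN1, FPS1) and 1 lower (GRE2), where 60.3% of all genes passed, 31.9% higher and 28.4% lower. For number 3 against 2, 4 were higher (AQY1, GPP1, GRE2, GPD2) and 0 lower, where 54.8% passed, 29.2% higher and 25.6% lower, and the GPD2 call was lost in 9 of 14 such fits. The members' median log2 difference was -0.23, 0.12 and 0.20, beside 0.00, 0.04 and 0.04 over all genes. Complete separation of number 1 below the others, seen in STL1, FPS1 and SLN1, occurred in 3.92% of all genes, and that of number 2 below the others, seen in GRE2, in 3.09%. These shares are printed as background, since the members were chosen with such values known. Scaling by total counts instead of TMM raised the median of all genes by 0.18, 0.32 and 0.14, and split the calls over all genes into 2266 higher and 585 lower for 2 against 1 (1180 and 1234 with TMM). The split was 3336 and 761 for 3 against 1 (1919 and 1711 with TMM) and 2367 and 1010 for 3 against 2 (1756 and 1541 with TMM). Under it GPD1 and GPP2 no longer passed for 2 against 1 (-0.06 and -0.19), nor GRE2 for 3 against 1. Leaving out polysomal replicate 3 with rancRNA_18-M2 raised the members passing for 3 against 2 from 4 to 7.

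Polysomal against total mRNA asks which messages were relatively richer on polysomes. Without the block, 0 of 10 members passed with no RNA (background 0.197% of 6106 genes), with rancRNA_18-M2 (0.377%, 0.0819% higher and 0.295% lower) and with rancRNA_18 (0.0%). With no RNA and with rancRNA_18-M2, 1 member each had an unadjusted p under 0.05, beside 648 and 1055 of 6106 genes. DESeq2 without the block called 0 members and 1 (GPD1), beside 115 and 408 of 6106 genes. With the block, 3 members fell with no RNA (AQY1, GPD1, STL1) and 0 rose, where 22.3% of 6016 genes passed, 12.7% higher and 9.61% lower. With rancRNA_18-M2, 6 fell (AQY1, GPD1, GPP2, GPP1, STL1, GPD2) and 0 rose, where 32.3% passed, 16.8% higher and 15.5% lower. The members' medians were -0.25 and -0.36, beside -0.03 and -0.02 over all genes. In the first comparison 1 member passed without total replicate 3 with no RNA, and 5 passed without polysomal replicate 3 with no RNA or without polysomal replicate 1 or 3 with rancRNA_18-M2. In the second, 3 passed without total replicate 2 with rancRNA_18-M2, 2 without its polysomal replicate 2 and 3 without its polysomal replicate 3. With total count scaling and the block 7 members passed in each, while the median of all genes moved by -0.20 and -0.21 and the calls over all genes split into 334 higher and 1702 lower (762 and 578 with TMM) and 533 and 2058 (1010 and 934 with TMM). Without the block that scaling split the rancRNA_18-M2 calls into 20 and 152 (5 and 18 with TMM).

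**Figure D3:**
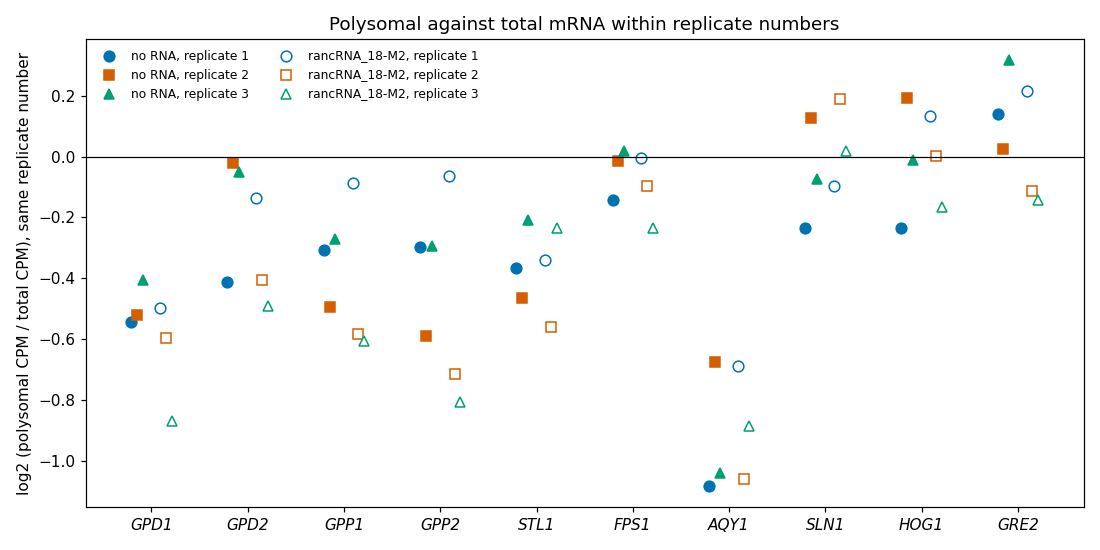
Log2 ratio of polysomal to total CPM within each replicate number, for each gene, with no RNA (filled) and rancRNA_18-M2 (open). A point below 0 means a lower relative level in polysomes. All 6 points are below 0 for GPD1, GPD2, GPP1, GPP2, STL1 and AQY1, and AQY1 reaches -1.08. The share of all genes with 6 points below 0 was not counted.

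For rancRNA_18 the comparison of fractions rests on 1 polysomal library, assumed to vary as libraries of the other groups do, and on its unknown number. Taken as replicate 1, 3 members fell (AQY1 at -1.22, GPD1 at -0.81, STL1 at -0.54), where 12.3% of genes passed, 8.32% higher and 3.93% lower. Taken as replicate 2, GRE2 rose (1.08) and STL1 (-2.09), AQY1 and GPD1 fell, where 29.8% passed, 16.2% higher and 13.6% lower. STL1 in this library, at 65.0 CPM, lay within the range of number 1 (64.4 to 104 CPM) and below that of number 2 (193 to 295 CPM). GRE2, at 1383 CPM, lay above both (906 to 1268 and 572 to 621 CPM). GPP1, at 1752 CPM, lay within the range of number 1 (1654 to 2123 CPM) and above that of number 2 (1004 to 1514 CPM). FPS1 (71.6 CPM), SLN1 (19.5 CPM) and HOG1 (93.8 CPM) also lay within their ranges in number 1 and below those in number 2. All these ranges pool total and polysomal libraries. GPD1 (1188 CPM), GPP2 (607 CPM) and AQY1 (11.1 CPM) lay below pooled number 1, at 1330 to 2092, 658 to 808 and 11.7 to 26.6 CPM. They lay within pooled number 2, at 1141 to 1806, 427 to 702 and 8.45 to 21.0 CPM. GPD2 (111 CPM) lay below both ranges. Against polysomal libraries alone, GPP2 and AQY1 lay between the numbers. Number 2 there had 427 to 443 and 8.45 to 10.05 CPM, and number 1 had 658 to 733 and 11.7 to 16.5 CPM. SLN1 also lay between them (15.03 to 17.2 CPM in number 1, 23.3 to 25.6 CPM in number 2). GPD1 stayed below polysomal number 1 (1330 to 1481 CPM), at the top of number 2 (1141 to 1188 CPM). The number of this library was not taken from these values.

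Between electroporations no member passed without the block, in any of 9 comparisons of total mRNA, polysomal mRNA or the difference between them, where 0.0% of all genes passed. None had an unadjusted p under 0.05 there, and DESeq2 called 0. In total mRNA, the member farthest from 0 for rancRNA_18 against no RNA was AQY1 at a log2 fold change of -0.41 (SE 0.55), which was 0.12 (SE 0.14) with the block. GRE2 stood at 0.35 (SE 0.39), and at 0.30 (SE 0.14, adjusted p = 0.51) with the block. With rancRNA_18-M2 in total mRNA, GPD2 stood farthest at 0.24 (SE 0.18), with 179, 157 and 175 CPM against 151, 123 and 159 CPM, higher in 3 of 3 pairs (0.25, SE 0.12, adjusted p = 0.64 with the block). In polysomal mRNA AQY1 stood farthest at 0.27 (SE 0.49), higher in 3 of 3 pairs, and at 0.29 (SE 0.13, adjusted p = 0.72) with the block. STL1 had 0.14 (SE 0.60) in total and 0.09 (SE 0.60) in polysomal mRNA. With the block these were 0.18 (SE 0.11) and 0.14 (SE 0.11). The change of the polysomal to total ratio with rancRNA_18-M2 lay between -0.17 and 0.12 over the 10 members. The no-RNA libraries are the controls of both.

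**Figure D4:**
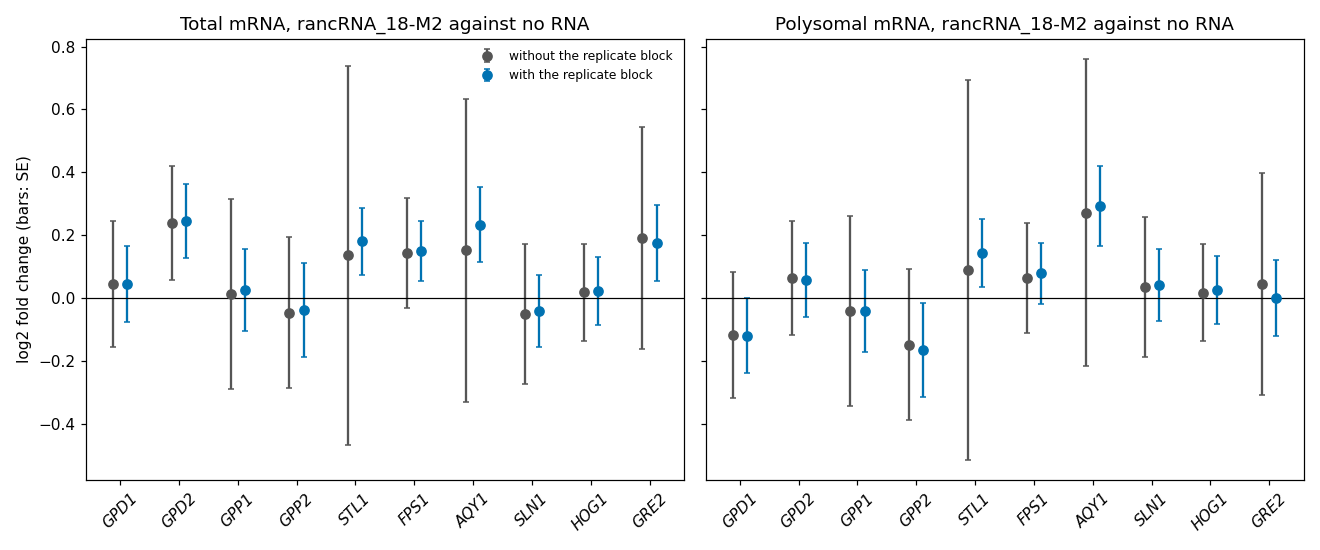
Log2 fold change of each gene with rancRNA_18-M2 against no RNA in total (left) and polysomal mRNA (right). Points are estimates and bars SE, without (grey) and with (blue) the replicate block. The bars of STL1 shrink from 0.60 to 0.11 with the block, and no gene passed.

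The number given to the single rancRNA_18 polysomal library decides its blocked comparisons. As replicate 1, 0 of 10 members passed against no RNA or against rancRNA_18-M2. As replicate 2, STL1 fell (-1.62, SE 0.18, adjusted p = 1.2e-05) and GRE2 (1.21, SE 0.17) and GPP1 (0.69, SE 0.19) rose against no RNA, where 8.61% of genes passed, 4.81% higher and 3.8% lower. Against rancRNA_18-M2 the same 3 genes passed, at -1.77, 1.20 and 0.72, where 14.2% passed, 7.45% higher and 6.76% lower. The change of the polysomal to total ratio then passed for STL1 and GRE2 against no RNA (-1.74 and 0.91, beside 2.77% of genes, 1.65% higher and 1.11% lower) and against rancRNA_18-M2 (-1.71 and 1.08, beside 2.6%, 1.57% higher and 1.03% lower). Without the block these polysomal differences from no RNA were -1.33 (SE 0.93) for STL1, 0.72 (SE 0.48) for GRE2 and 0.24 (SE 0.42) for GPP1.

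Other genes of the pathway were taken from 3 lists of known function, and genes beyond the 4 a list with the smallest p were named after their values were seen. The shares of all genes that passed were 12.7% higher and 9.61% lower with no RNA, and 16.8% and 15.5% with rancRNA_18-M2. Of 24 signalling genes of the Hog1 pathway, 3 rose in polysomes with no RNA and 0 fell with the block, namely CDC42, a small GTPase (0.41, SE 0.10), PTC1, a phosphatase (0.44, SE 0.12), and YPD1, the phosphorelay protein downstream of Sln1 (0.42, SE 0.15). With rancRNA_18-M2 the same 3 rose, at 0.54, 0.44 and 0.77, and 1 fell, the transcription factor gene MSN4 (-0.32, SE 0.12). The medians of the list were 0.05 and 0.04, beside -0.03 and -0.02 over all genes, and its share higher with no RNA, 3 of 24, was near the background. Of 12 further glycerol genes 0 rose in either comparison. The dihydroxyacetone kinase gene DAK1 fell with no RNA (-0.57, SE 0.12) and with rancRNA_18-M2 (-0.76, SE 0.12), where the glycerol dehydrogenase gene GCY1 fell too (-0.43, SE 0.13). The medians were -0.02 and -0.08. Of 14 stress targets 3 rose with no RNA, the small heat shock protein gene HSP12 (0.76, SE 0.13), the hydrophilin gene SIP18 (0.77, SE 0.15) and HOR7 (0.50, SE 0.15), and again with rancRNA_18-M2, at 1.05, 0.97 and 0.92. The trehalose synthase gene TPS1 (-0.58 and -0.91) and the aldehyde dehydrogenase gene ALD3 (-0.36 and -0.54) fell in both comparisons, and ALD2, CTT1 and the hexose transporter gene HXT1 passed as lower with rancRNA_18-M2 (-0.48, -0.60 and -0.84). The medians were -0.10 and -0.15. Without the block 0 genes of the 3 lists passed, and between no RNA and rancRNA_18-M2 0 passed with or without it.

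Between numbers, the shares of all genes that passed were 19.6% higher and 20.5% lower for 2 against 1, 31.9% and 28.4% for 3 against 1, and 29.2% and 25.6% for 3 against 2, with medians of 0.00, 0.04 and 0.04. Of the lists, 0 of 14 stress targets were higher and 10 lower for 2 against 1, with a median of -0.49, among them the catalase gene CTT1 (-1.31, SE 0.10), ALD3 (-0.81, SE 0.10) and the hydrophilin gene GRE1 (-0.86, SE 0.12). For 3 against 2, 9 were higher, with a median of 0.61, among them the membrane protein gene PHM7 (1.29, SE 0.10), the sodium pump gene ENA1 (0.92, SE 0.11) and the trehalose phosphatase gene TPS2 (0.80, SE 0.10), and SIP18 was lower (-0.79, SE 0.13). For 3 against 1, PHM7, ENA1 and TPS2 were higher and GRE1, HOR7, SIP18, CTT1 and HSP12 lower, by 0.46 to 0.70 on the log2 scale for the lower ones. Of the 24 signalling genes 6 were higher and 3 lower (RCK2, MSN2 and CDC42) for 2 against 1, and 10 and 7 for 3 against 2. For 3 against 1, 11 were higher, among them the phosphatase gene PTP3 (1.03, SE 0.09) and the mucin gene HKR1 (0.94, SE 0.09), and 4 lower, CDC42 (-0.59, SE 0.08), STE50, OPY2 and NBP2. These 15 of 24 are near the background of 60.3%. Of the 12 glycerol genes AQY3, GUT1 and ASK10 were higher and DAK2, GCY1 and YPR1 lower for 2 against 1. For 3 against 1, AQY2, GUP1, ASK10, GUT2 and AQY3 were higher and YPR1 lower, and for 3 against 2, 9 were higher and 0 lower. GCY1 stood at -0.54 (SE 0.10) for 2 against 1 and 0.65 (SE 0.11) for 3 against 2.

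Over the 15 libraries, which share replicate numbers and fractions, the members fell into different patterns. Pearson r of log2 CPM was 0.905 for STL1 with FPS1 and 0.854 for STL1 with SLN1, but -0.805 for STL1 with GRE2. GPD1 and GPP2 had r = 0.868, and GPP1 and GPP2 0.848, while GPD1 and STL1 had 0.112. Among 4394 genes with a mean of at least 20 CPM, the genes most like STL1 were FET3, a ferroxidase gene of iron uptake (r = 0.989), and FAA4, a fatty acyl-CoA synthetase gene (0.969). GPD1 was nearest to APE1, a vacuolar aminopeptidase gene (0.975), and STI1, a co-chaperone gene (0.971). GPD2 was nearest to PAN1 (0.945) and RET2 (0.929), GPP1 to IMD3 (0.967) and SHP1 (0.952), and GPP2 to DUG1 (0.945) and EFT2 (0.937). AQY1 was nearest to the aldehyde dehydrogenase gene ALD4 (0.963) and PSY4 (0.956), and GRE2 to the vitamin synthesis gene SNZ1 (0.955) and YDL124W (0.932). FPS1 was nearest to YGL114W (0.969) and MIL1 (0.944), SLN1 to the chromatin remodeller gene ISW2 (0.966) and RPO41 (0.961), and HOG1 to PTK2 (0.869) and FRA1 (0.867).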

How the data were processed

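Each deposited file gives the whole-number read counts of 1 library, 1 count a gene, not normalized. FastQC, HISAT2 and featureCounts were the tools, per the submitters' processing notes, and the library kit keeps strand, per the labels' protocols. Build, annotation and strand setting were not given in the sources used here. No spike-in is named, so levels are relative within a library. The test was edgeR's robust quasi-likelihood F-test (edgeR 4.0.16, R 4.3.3, TMM, filterByExpr, 6 groups, 15 distinct libraries, 6106 genes, 9 residual degrees of freedom), with Benjamini-Hochberg adjustment over all genes and a threshold of 0.05. The design entered files that held identical counts once. Comparisons of replicate numbers and the replicate block used group and number in 14 libraries (6016 genes, 7 residual degrees of freedom), leaving out the library of unknown number, which was otherwise entered as 1 and as 2. Same-numbered libraries deviated together (r over 0.1 in 26 of 26 pairs; -0.587 to 0.0296 in 52 pairs of different numbers), so the pairing comes from the data and not the labels. Deviations from the mean sum to 0 within a group of 2 or 3 libraries. The negative r between different numbers therefore follows in part from the positive r of the same number. DESeq2 1.42.0, other scalings, no filter and leaving out each library were alternatives, and the fits were tested on simulated data. Of 7126 IDs, 6048 matched RefSeq R64, used for names, coding length and sequence by its own coordinates. Correlations used log2 CPM with a prior count of 2. The members and the lists were chosen with earlier results of these data known. Named were all members, up to 4 genes a list by smallest p and the 2 most alike genes of each member. Other genes of the lists were named after their values were seen.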

Additional observations from a re-analysis of the deposited data

How the results depend on the processing

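Counts of members passing, of 10, moved as follows. For polysomal against total mRNA with no RNA, 0 passed without the block and 3 with the replicate block, 3 with RLE scaling and block, 3 without the filter and with the block, 4 with DESeq2 and block, and 7 with total count scaling and block. With rancRNA_18-M2 these counts were 0, 6, 5, 6, 5 and 7, and 1 without the block with total count scaling or DESeq2. Of all 6016 genes, RLE scaling with the block called 1308 with no RNA and 1909 with rancRNA_18-M2. DESeq2 with the block called 1394 and 1949, and total count scaling with the block 2036 and 2591. The count over all genes without the filter is not given here. With rancRNA_18 the replicate block gave 3 with the library as replicate 1 and 4 as replicate 2. As replicate 2 it gave 3 for rancRNA_18 against no RNA and 3 against rancRNA_18-M2 in polysomal mRNA, and 2 and 2 for the change of the ratio, where 0 passed otherwise. The replicate block changed no other call between electroporations. Between numbers, which are part of that fit, total count scaling gave 8 of 10 for 3 against 1 (5 with TMM). Of all 6016 genes, 4097 passed there (3630 with TMM). For 3 against 2 it gave 9 of 10 (4 with TMM), beside 3377 genes (3297 with TMM). Polysomal libraries alone, with fewer libraries, gave 3 for 3 against 1, 4 for 2 against 1 and 2 for 3 against 2. Both fractions gave 5, 8 and 4. The share of all genes passing in polysomal libraries alone is not given here. Total count scaling, chosen after seeing the data, turned GPD1 from -0.02 to 0.30 and GPP1 from -0.03 to 0.30 for 3 against 1, where it raised the median of all genes by 0.32. The cause of these changes was not tested. Leaving out each library in turn gave 0 to 0 without the block and 1 to 5 with it for the fractions with no RNA, 0 to 0 and 2 to 6 with rancRNA_18-M2, 0 to 0 with rancRNA_18, and 0 to 0 between electroporations. It gave 5 to 6 for 3 against 1, 6 to 9 for 2 against 1 and 3 to 7 for 3 against 2. Of the values of single members, 3594 kept direction and side of the threshold, 428 changed sign but passed in neither fit, 197 passed newly, 39 no longer passed and 2 changed sign with a call. Over all genes, 12 passed with no RNA without the block, 28 with total count scaling, 115 with DESeq2 and 1340 with the block. With rancRNA_18-M2 the counts were 23, 172, 408 and 1944, and with rancRNA_18 0, 0, 31 and 748 or 1820 by the library's number. Total count scaling with the block gave 2036 with no RNA. Between electroporations 0 genes passed without the block, while with that library as replicate 2 the counts in polysomal mRNA were 526 against no RNA and 868 against rancRNA_18-M2, and 169 and 159 for the ratio. DESeq2 with the block called 9 genes for rancRNA_18 against no RNA and 1 against rancRNA_18-M2 in total mRNA, and 2 in polysomal mRNA between no RNA and rancRNA_18-M2. Depth limits AQY1 most, with 147 to 1041 reads a library.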
